A study of Gallus gallus with 3 samples.

Results

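Foregut endoderm was compared with mid/hindgut endoderm of the chick embryo, across every gene that the array annotation names. The comparison rests on 2 of the 3 arrays of the series, 1 Affymetrix Chicken Genome Array for each tissue, and covers 10929 genes that gave signal on either array, of 13050 named genes. The foregut sample was endoderm ahead of the anterior intestinal portal, where the closed foregut opens toward the yolk, at Hamburger-Hamilton (HH) stages 10 to 11. The mid/hindgut sample was endoderm lying behind the prospective small intestine, at HH stages 8 to 10. The labels give no strain, sex or treatment for either. Each tissue was gathered at intervals of 4 hours for 1 day and pooled. It was cut out with its mesenchyme, which was then peeled away after 30 minutes in 0.03% collagenase, and 5 µg of total RNA went onto the array. The number of embryos in these 2 pools is not given in the sources used here. The remaining array, of whole early endoderm at HH stages 4 to 5 from 500 embryos, is quoted only as a side value. With n = 1 pool per tissue there is no replicate, no test and no p-value for any difference below. The foregut was also the later stage, so stage and position cannot be told apart.

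Endoderm forms the inner lining of the gut and the organs that bud from it. In the chick the front part folds into a closed pharyngeal tube that gives rise to thyroid, lungs, oesophagus and stomach, while the flat sheet behind it later closes into the intestine and is still in contact with yolk. The lining is an epithelium: its cells are held together by cadherins, tight junctions and desmosomes, rest on a basement membrane, exchange secreted signals with the mesenchyme around them, and in the yolk-facing part take up nutrients and secrete carrier proteins.

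Values are scaled signal intensities of 1 probe set per gene, in arbitrary units. A signal was counted as measured above a floor of 22.1 units, and lower signals were set to it before a fold was taken. Folds against a signal at the floor are written as "at least". Log2 differences are foregut minus mid/hindgut. Technical spread was taken between 2 probe sets of 1 gene, both above the floor on all 3 arrays. The log2 difference then had a technical SD of 0.36 over 4127 genes, which is not the spread between embryos. Where the brighter of these 2 probe sets differed 2-fold (296 genes), the other pointed the same way for 94.6% of genes and passed 2-fold too for 51.0%. For genes at the floor on any array neither the SD nor these shares were measured. On the foregut array 60.2% of chicken probe sets exceeded the floor, and on the mid/hindgut array 60.8%. The size of these 2 shares is largely set in advance, since the floor was the 40th percentile of chicken signals over the 3 arrays. Of viral probe sets 2.76% and 2.18% exceeded it. The actin signal at the 3′ end over the 5′ end was 1.69 in foregut and 2.19 in mid/hindgut, and the hybridisation controls stood in foregut at 0.674 of their mid/hindgut signal. The part of either in the differences below was not tested.

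Of the 10929 genes measured, 9652 were above the floor in both tissues, 682 in foregut only and 595 in mid/hindgut only. The median log2 difference was 0.02. In foregut 695 genes were at least 2-fold higher (6.36% of those measured) and 627 were at least 2-fold lower (5.74%). The difference reached 4-fold for 138 higher and 147 lower genes, and 16-fold for 17 higher and 28 lower genes. The fold is only a lower bound for 154 of the 2-fold higher and 126 of the 2-fold lower genes. These shares are the background for each functional group described below, whose lists were chosen with earlier results of these data known. The plot of all measured genes shows most points along the diagonal and both tails of genes that were near or at the floor in 1 tissue.

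**Figure D1:**
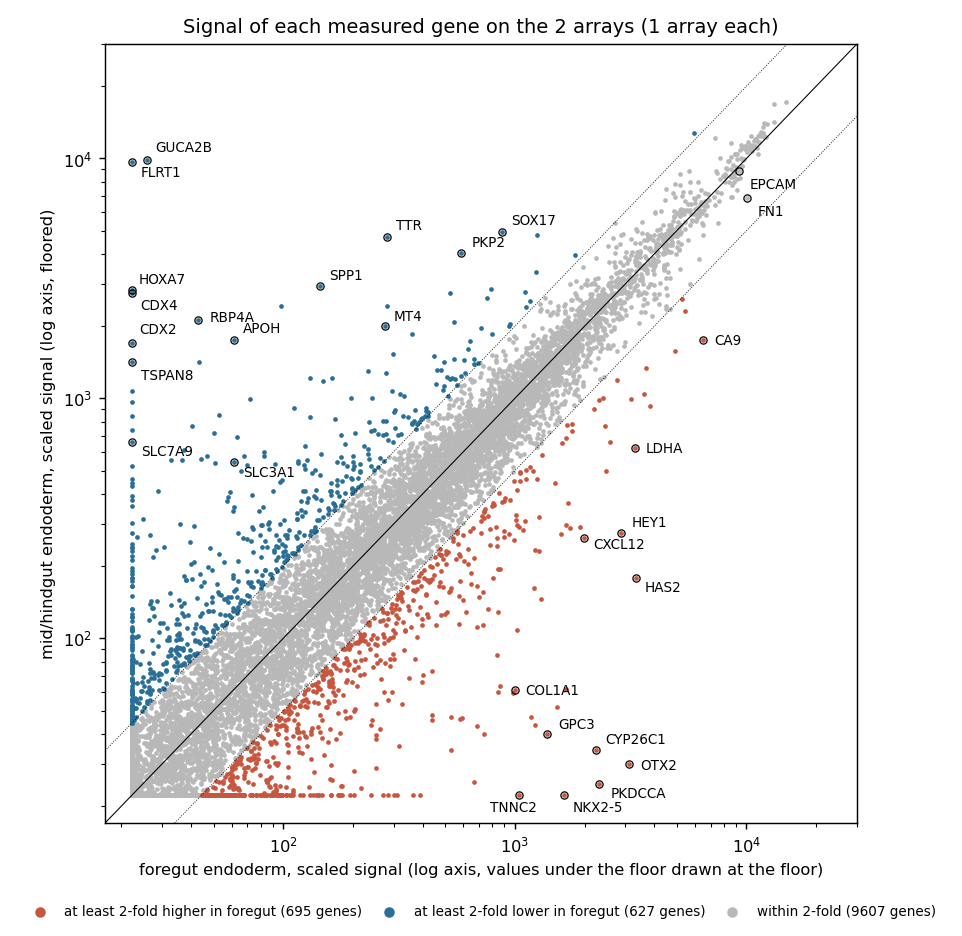
Scaled signal of the 10929 measured genes in foregut endoderm (horizontal, log axis) and mid/hindgut endoderm (vertical, log axis), 1 array each, with signals under the floor of 22.1 drawn at the floor. The solid line marks equal signal and the dotted lines 2-fold; 695 genes lie past the line on the foregut side and 627 on the mid/hindgut side, with OTX2 and PKDCCA at one extreme and FLRT1 and GUCA2B at the other.

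The tissue labels were first set against genes that mark the gut lining and its position. General endoderm and epithelial genes were present in both tissues. EPCAM, an epithelial adhesion molecule, read 9297 in foregut and 8896 in mid/hindgut. CDH1, the epithelial cadherin, read 607 and 554.1 in the same order, FOXA2, a pioneer factor of endoderm, 1023 and 868, and HHEX, a homeobox gene of endoderm and liver, 1603 and 1308. Each of those 4 genes differed by less than 2-fold between the arrays. None of 12 measured pan-endoderm transcription factors was 2-fold higher in foregut and 4 were lower, namely SOX17, GATA6, GATA5 and ELF3. ELF3 stood just past 2-fold at -1.03 and fell short of it under median, quantile, ribosomal protein and hybridisation control scaling and with the floor at the 60th percentile (-0.96 to -0.46). GATA5 fell short under hybridisation control scaling alone, at -0.88 in place of -1.45. SOX17, needed for endoderm formation, had 879 in foregut, 4947 in mid/hindgut and 9773 in early endoderm.

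Most position genes that were 2-fold apart differed in the direction the labels give. These genes and lists were chosen with earlier results of these data known, so they give no independent check of the labels. Of 23 measured foregut and pharynx factors, 15 (65.2%) were 2-fold higher in foregut and 4 (17.4%) lower, with a median log2 difference of 1.30. Over the 13 of them above the floor in both tissues the median was 1.59. OTX2, a homeobox gene of head and anterior endoderm, read 3110 in foregut and 29.8 in mid/hindgut, 104-fold apart, with 2101 in early endoderm. PAX9, a paired-box gene of the pharyngeal pouches, read 686 in foregut and 43.2 in mid/hindgut, and NKX2-5, a factor of heart and pharynx, 1630 in foregut and below the floor in mid/hindgut. The tissue-restricted factors SOX2 (72.2 in foregut, 31.7 in mid/hindgut) and NKX2-1 of thyroid and lung (144 and 47.7) were 2.28-fold and 3.01-fold higher at low signal. On the other side, 11 of 16 posterior gut and tail bud factors (68.8%) and 17 of 24 measured HOX genes (70.8%) were 2-fold lower in foregut. Only 10 of the 16 and 7 of the 24 were above the floor in both tissues, with medians of -1.90 and -0.24. Most of the 24 HOX genes were thus counted through signal in mid/hindgut alone. CDX2, the master factor of the intestinal lining, was below the floor in foregut against 1694 in mid/hindgut, and CDX4 below it against 2739. Other probe sets of CDX2 differed by -4.39 and 0.23. The probe set at 0.23 was above the floor in both tissues, at 93.7 in foregut and 79.8 in mid/hindgut. HOXA7 was below the floor in foregut and read 2841 in mid/hindgut, at least 128-fold apart. HOXB1, the HOX gene with the highest foregut signal, read 498 in foregut and 461.5 in mid/hindgut, a log2 difference of 0.11. The exception in the posterior list was GBX2, a homeobox gene of the early embryo, at 1294 in foregut and 146 in mid/hindgut. The 4 lower members of the foregut list were PITX1, DLX5, HAND2 and IRX4. PITX1, a hindlimb and stomodeal factor, read 65.4 in foregut and 499 in mid/hindgut, and DLX5 read 344 and 834. HAND2 (25.1 and 63.4) and IRX4 (below the floor and 46.1) were read at low signal.

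Cells of other types could be present in either pool, so lists of their markers were read beside the gene groups. The lists cover genes that endoderm may also express. Over all genes measured, 6.36% were 2-fold higher in foregut and 5.74% lower. Among 25 measured mesenchyme genes, 12 (48%) were 2-fold higher in foregut and 1 (4%) lower, and the median was 0.93. The summed signal of all 30 mesenchyme genes on the array was 13050 in foregut and 6706 in mid/hindgut, with 8 and 9 of them at the floor. TWIST1, a mesenchymal factor, read 174 in foregut and was below the floor in mid/hindgut, and PRRX1 read 398 and 114. Of 21 red cell genes, 5 globins (23.8%) were lower in foregut and 2 other genes (9.52%) higher. Their list had summed signals of 11305 in foregut and 15144 in mid/hindgut. HBBR, an embryonic beta-type globin, read 50.2 and 718. Blood vessel genes summed to 16653 in foregut and 17942 in mid/hindgut, and 1 of 31 was higher and 1 lower (3.23% each). CDH5, the vascular cadherin, had 2535 in foregut and 4331 in mid/hindgut, and did not pass the floor in early endoderm. Of 25 cardiac and smooth muscle genes 6 (24%) were higher in foregut, namely NKX2-5, TNNI1, ACTA1, TNNT2, MYOCD and ACTC1, and 3 (12%) lower, namely MYL4, MYH7 and HAND2. TNNT2 and TNNI1, troponin subunits of heart and of slow muscle, read 73.5 and 118 in foregut and were below the floor in mid/hindgut, with 0.17 on a second probe set of TNNI1. ACTA1, skeletal muscle actin, read 289 and 101, and MYL4, a light chain of atrial myosin, 546 and 2091. The part of these cells in the results was not tested. In such bulk samples, fewer cells of a type and less RNA per cell cannot be told apart.

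Across functions, as the plot of function lists shows, the medians furthest from 0 were those of HOX genes (-2.95), posterior factors (-2.87), foregut factors (1.30), pan-endoderm factors (-0.70), matrix (0.58) and plasma proteins (-0.47). The HOX median depends on the floor, since 21 of the 29 HOX genes on the array were at the floor in foregut. Over the 7 above the floor in both tissues it was -0.24. Most groups used by every cell had few members 2-fold apart. Of 61 measured ribosomal protein genes 0 were 2-fold apart in either direction, of 51 genes of the citrate cycle and respiratory chain 0 were higher and 2 lower in foregut, and of 50 cell cycle genes 2 were higher and 1 lower. Of 36 genes of serine, one-carbon and nucleotide synthesis 0 were higher and 1, CBS, was lower. CBS stood at -1.03 and fell short of 2-fold under median, quantile, ribosomal protein and hybridisation control scaling (-0.97 to -0.46). The 19 measured genes of cholesterol synthesis had a median of 0.00, and among them HMGCS1, which makes the HMG-CoA that the pathway starts from, was lower in foregut at 413 against 883. The HMGCS1 probe set is marked as shared between transcripts. Heat shock and stress genes were an exception on the lower side. Of 24, 0 were higher and 3 (12.5%) lower in foregut, with a median of -0.39. The 3 were ASNS (-1.88), CHAC1 (-1.58) and HSPH1 (-1.47), of which ASNS is also counted among the amino acid enzymes below. HSPH1 fell short of 2-fold under hybridisation control scaling (-0.90) and with the median over probe sets (-0.74). Of 16 immediate early genes 0 were higher and 1 (6.25%) lower, and of 42 lysosome, cathepsin and protease inhibitor genes 3 (7.14%) were higher and 2 (4.76%) lower. Among families counted by symbol after the values were seen, 0 of 65 mitochondrial ribosomal proteins and 0 of 44 translation initiation factors were 2-fold apart.

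**Figure D2:**
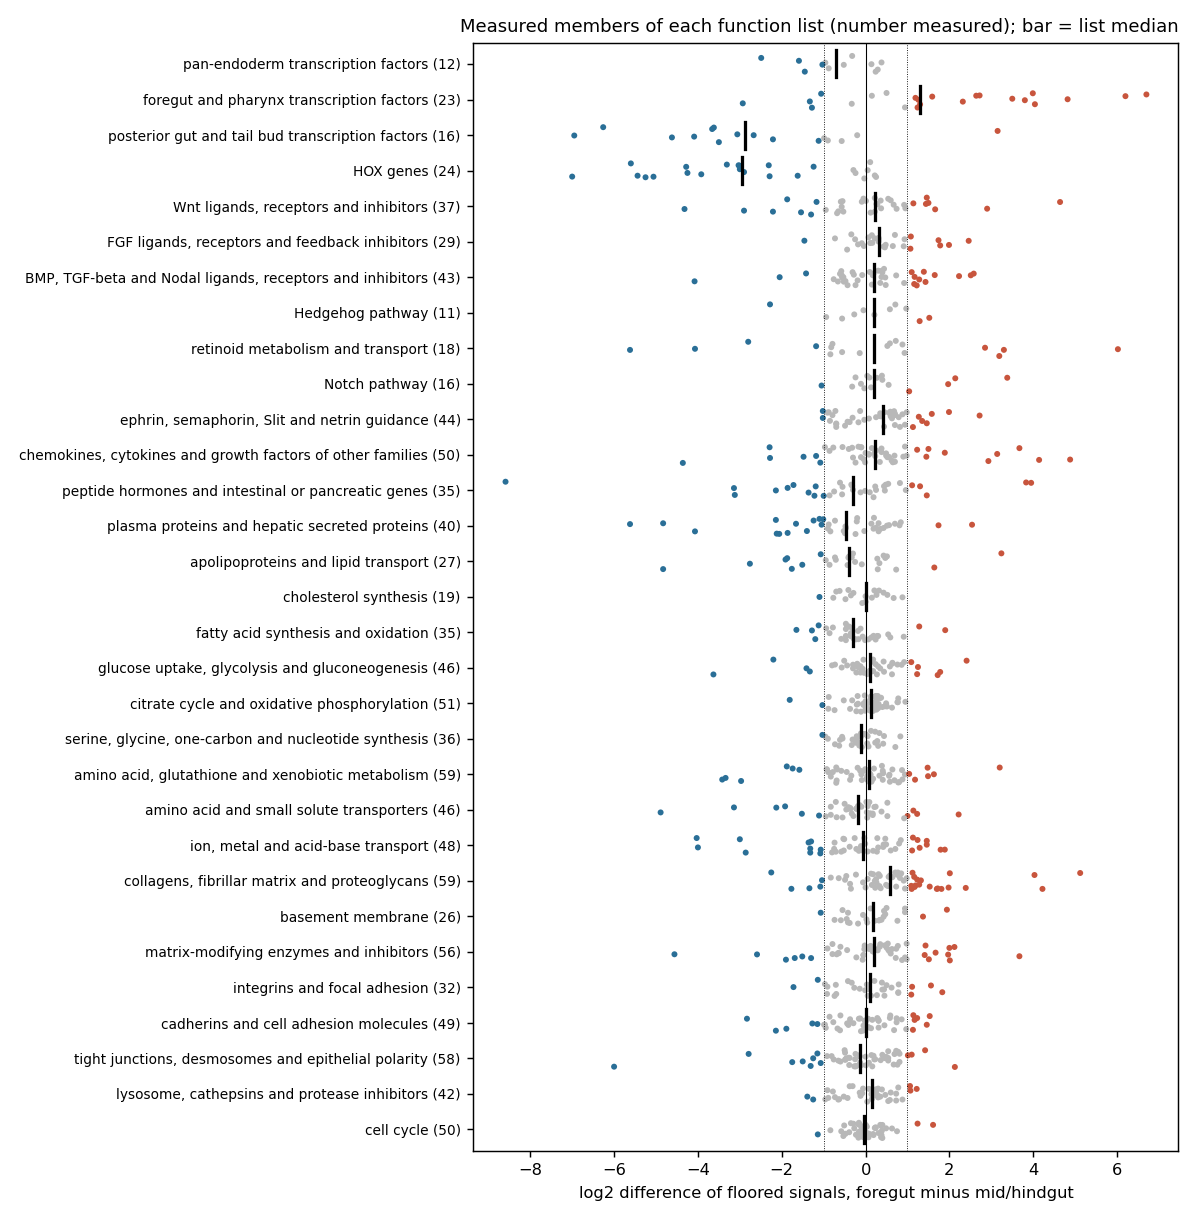
Log2 difference of floored signals, foregut minus mid/hindgut (horizontal), for each measured member of 31 function lists (rows, with the number measured), 1 array per tissue. Black bars are list medians, red points are at least 2-fold higher in foregut and blue points at least 2-fold lower. Foregut factors and matrix genes extend to the right, posterior factors and HOX genes to the left, and synthesis and respiratory lists stay near 0.

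Glucose handling differed in which genes were high rather than in its level as a whole. Of 46 measured genes of glucose uptake, glycolysis and gluconeogenesis, 6 (13%) were 2-fold higher in foregut and 4 (8.70%) lower, and the median was 0.11. SLC2A1, the widely used glucose carrier GLUT1, read 2405 in foregut and 1008 in mid/hindgut. PFKFB3, whose product speeds glycolysis through fructose 2,6-bisphosphate, read 207 and 63.0, though its other probe sets differed by -0.01 and 0.42 on the log2 scale. ALDOC, an aldolase, read 5414 in foregut and 2306 in mid/hindgut. Each of these was higher in foregut by about the same order, between 2.35-fold and 3.29-fold.

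The lactate end of glycolysis showed a larger difference. LDHA, the lactate dehydrogenase subunit of glycolytic tissues, read 3303 in foregut, 622 in mid/hindgut and 2245 in early endoderm, 5.31-fold higher in foregut. SLC16A3, which exports lactate, read 645 and 188, 3.43-fold higher. LDHB, the subunit of oxidative tissues, read 7325 in foregut and 12120 in mid/hindgut, a log2 difference of -0.73. The central enzymes stayed close between the tissues: ENO1 read 11284 and 11722, and GAPDH 10917 and 11260.

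Of 11 measured carbonic anhydrases, counted as a family after the values were seen, 3 were higher in foregut (CA9, CA2 and CA10) and 0 lower. CA10 read 90.4 in foregut and 22.9 in mid/hindgut, just above the floor, with 0.22 on a second probe set. CA9, a membrane carbonic anhydrase that turns over carbon dioxide outside the cell, read 6520 in foregut, 1755 in mid/hindgut and 1810 in early endoderm. CA2, a cytosolic carbonic anhydrase that red cells also hold, read 943 and 273 on its only probe set, which is marked as shared between transcripts. The hypoxia-inducible factors, which control several of these genes in mammals, were chosen for mention after their values were seen. HIF1A had 3612 in foregut, 1041 in mid/hindgut and 962 in early endoderm, and a second probe set differed alike (1.79 and 1.75). EPAS1, which encodes HIF-2-alpha, had 163 in foregut, 1222 in mid/hindgut and 979 in early endoderm, with -2.91 and -3.38 on its 2 probe sets. So HIF1A was 3.47-fold higher and EPAS1 7.51-fold lower in foregut. VEGFA, a vascular growth factor, read 166 and 88.8, which is under 2-fold.

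Among the 4 lower genes of the glucose list are carriers of absorbing epithelia. SLC2A2, the GLUT2 carrier of liver and intestine, was below the floor in foregut and read 274 in mid/hindgut, at least 12.4-fold lower in foregut. SLC5A1, the sodium-coupled glucose carrier SGLT1, read 38.1 in foregut, 176 in mid/hindgut and 265 in early endoderm, and its 3 probe sets differed by -2.20, -3.19 and -2.93. FBP1, an enzyme of glucose synthesis, read 44.2 and 111, and HKDC1, a hexokinase-like gene, 41.6 and 111, with -0.33 on a second probe set of HKDC1.

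Amino acid carriers showed a matched pair. SLC7A9 and SLC3A1 encode the 2 subunits of the transporter that takes up cystine and basic amino acids in intestine and kidney. SLC7A9 was below the floor in foregut and read 658 in mid/hindgut, at least 29.7-fold lower in foregut. SLC3A1 read 61.4 in foregut and 542 in mid/hindgut, 8.83-fold lower. In early endoderm SLC7A9 did not pass the floor and SLC3A1 read 95.3. Of 46 measured carriers of amino acids and small solutes, 4 (8.70%) were higher and 6 (13%) lower, and the median was -0.17. SLC7A5, the large neutral amino acid carrier, read 492 and 1415, and SLC38A1, a glutamine carrier, read 2355 and 2329. Of 238 measured solute carriers named SLC or SLCO, a family counted after the values were seen, 15 were higher and 15 lower in foregut with a median of -0.02. Among the higher ones, SLC16A12, a monocarboxylate carrier family member, read 725 in foregut and 156 in mid/hindgut.

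Amino acid enzymes were mixed. Of 59 measured genes of amino acid, glutathione and xenobiotic metabolism, 6 (10.2%) were higher and 6 (10.2%) lower in foregut. ASS1, which makes argininosuccinate for arginine synthesis, read 438 and 47.7, 9.18-fold higher in foregut, on a probe set shared between transcripts. ASNS, asparagine synthetase, read 137 and 504.3, also on a shared probe set, and FAH, the last enzyme of tyrosine breakdown, read 122 and 410, so both were over 3-fold lower.

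Detoxifying enzymes differed in both directions. Of 10 measured UDP-glycosyltransferases and sulfotransferases, a family counted after the values were seen, 0 were higher and 3 lower in foregut, with a median of 0.09. UGT1A1, which conjugates bilirubin and drugs with glucuronic acid, was below the floor in foregut and read 238 in mid/hindgut, with -3.42 and -2.90 on 2 probe sets. SULT1C3, a sulfotransferase, read 26.5 in foregut and 269 in mid/hindgut. ABCG2, an efflux pump of the absorptive surface that was chosen after its values were seen, read 89.9 and 410. Of 29 cytochrome P450 genes, counted likewise, 2 were higher and 6 lower, and the median was 0.21. That family was counted by symbol and is not limited to detoxifying enzymes. It includes CYP26C1 (higher) and CYP26A1 (lower), which degrade retinoic acid and are given with the retinoid genes below. CYP17A1, another lower member, stood at -1.02. It fell short of 2-fold without scaling and under median, quantile, ribosomal protein and hybridisation control scaling (-0.96 to -0.79). Also among the lower P450 genes were CYP2C23a (below the floor in foregut, 173 in mid/hindgut) and CYP2C23b (28.4 and 143), each read on a shared probe set. Glutathione transferases had 3 of 13 members higher in foregut and 0 lower: GSTA2 read 1008 and 326 on a shared probe set, and GSTA4 read 253 and 38.1. The family median was -0.34.

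Metal handling held some of the larger differences. Of 48 measured genes of ion, metal and acid-base transport, 8 (16.7%) were higher and 10 (20.8%) lower in foregut. MT3, a metallothionein that binds zinc and copper, read 37.3 in foregut and 610.2 in mid/hindgut, and MT4, of the same family, 274 and 1997. SLC39A8, an importer of zinc and manganese, read 148 and 1187, and its 2 other probe sets differed by -3.22 and -3.64. SLC30A10, a manganese exporter in humans, was below the floor in foregut and read 355 in mid/hindgut. FTH1, the ferritin heavy chain that stores iron, read 6628 and 6655. MT3, MT4, SLC39A8 and SLC30A10 were thus each lower in foregut by 7.28-fold or more, and ferritin was not 2-fold apart. Over the 17 measured zinc carriers of the SLC30 and SLC39 families, counted after the values were seen, 1 was higher and 2 were lower. The higher one was SLC39A12, which read 61.6 in foregut, did not pass the floor in mid/hindgut, and gave 0.58 and 0.22 on other probe sets.

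Plasma and lipid carriers were lower in foregut as groups under every scaling tried but that on hybridisation controls. Of 40 measured plasma and hepatic secreted proteins, 2 (5.00%) were higher and 13 (32.5%) lower, and the median was -0.47; of 27 apolipoprotein and lipid transport genes, 2 (7.41%) were higher and 7 (25.9%) lower, and the median was -0.39. Scaling on those controls moved the median of all genes to 0.56 and these medians to 0.02 and 0.16, still under the median of all genes. TTR, the carrier of thyroid hormone and of the retinol-binding protein, read 282 in foregut, 4718 in mid/hindgut and 87.5 in early endoderm. RBP4A, the retinol-binding protein, read 43.0 in foregut, 2119 in mid/hindgut and 2649 in early endoderm. APOH, a phospholipid-binding plasma protein, read 61.3 and 1748, 28.5-fold lower in foregut.

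Lipoprotein assembly genes were read at low signal. APOB, the structural protein of chylomicrons and very low density lipoproteins, was below the floor in foregut and read 75.2 in mid/hindgut, with its other measured probe sets at -0.31 and -0.18. MTTP, which loads lipid onto APOB, was below the floor and read 151. LCAT, which esterifies cholesterol in plasma, read 55.2 and 207. APOA1, the main protein of high density lipoprotein, read 990.3 in foregut, 1244 in mid/hindgut and 3305 in early endoderm, less than 2-fold apart in the later tissues.

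Blood plasma genes did not all share this sign. FGB, a fibrinogen chain, read 785 and 2845, and F2, prothrombin, 40.2 and 177, both lower in foregut. CFI, a complement regulator, read 5965 in foregut, 12767 in mid/hindgut and 7539 in early endoderm, 2.14-fold lower. It fell short of 2-fold under quantile normalisation (-0.97), hybridisation control scaling (-0.53) and the median over probe sets (-0.36). SERPINF1 read 78.2 and 339 on a shared probe set, and another shared one gave -1.73, but a probe set that is not shared gave the opposite difference of 2.19. The 2 members higher in foregut were F3, tissue factor that starts clotting, at 1580 and 272, and VTN, the adhesive plasma protein vitronectin, at 1492 and 446. TF, the iron carrier of egg white and plasma, read 1721 and 1981, while a pair of probe sets brighter in both tissues read 5757 and 4122, and 3360 and 2385, all under 2-fold apart.

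Fatty acid genes were found on both sides. FABP5, a fatty acid-binding protein, read 1023 in foregut and 108 in mid/hindgut on a shared probe set, while FABP7, of the same family, read 664 and 1390. LPL, lipoprotein lipase, read 81.0 and 296 on a shared probe set, and CPT1A, which admits fatty acids to mitochondria, 70.7 and 172. PPARGC1A, a coactivator of mitochondrial genes, read 378 and 102, with 0.48 on a second probe set. Over 35 measured genes of fatty acid synthesis and oxidation, 2 (5.71%) were higher and 4 (11.4%) lower, and the median was -0.29.

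**Figure D3:**
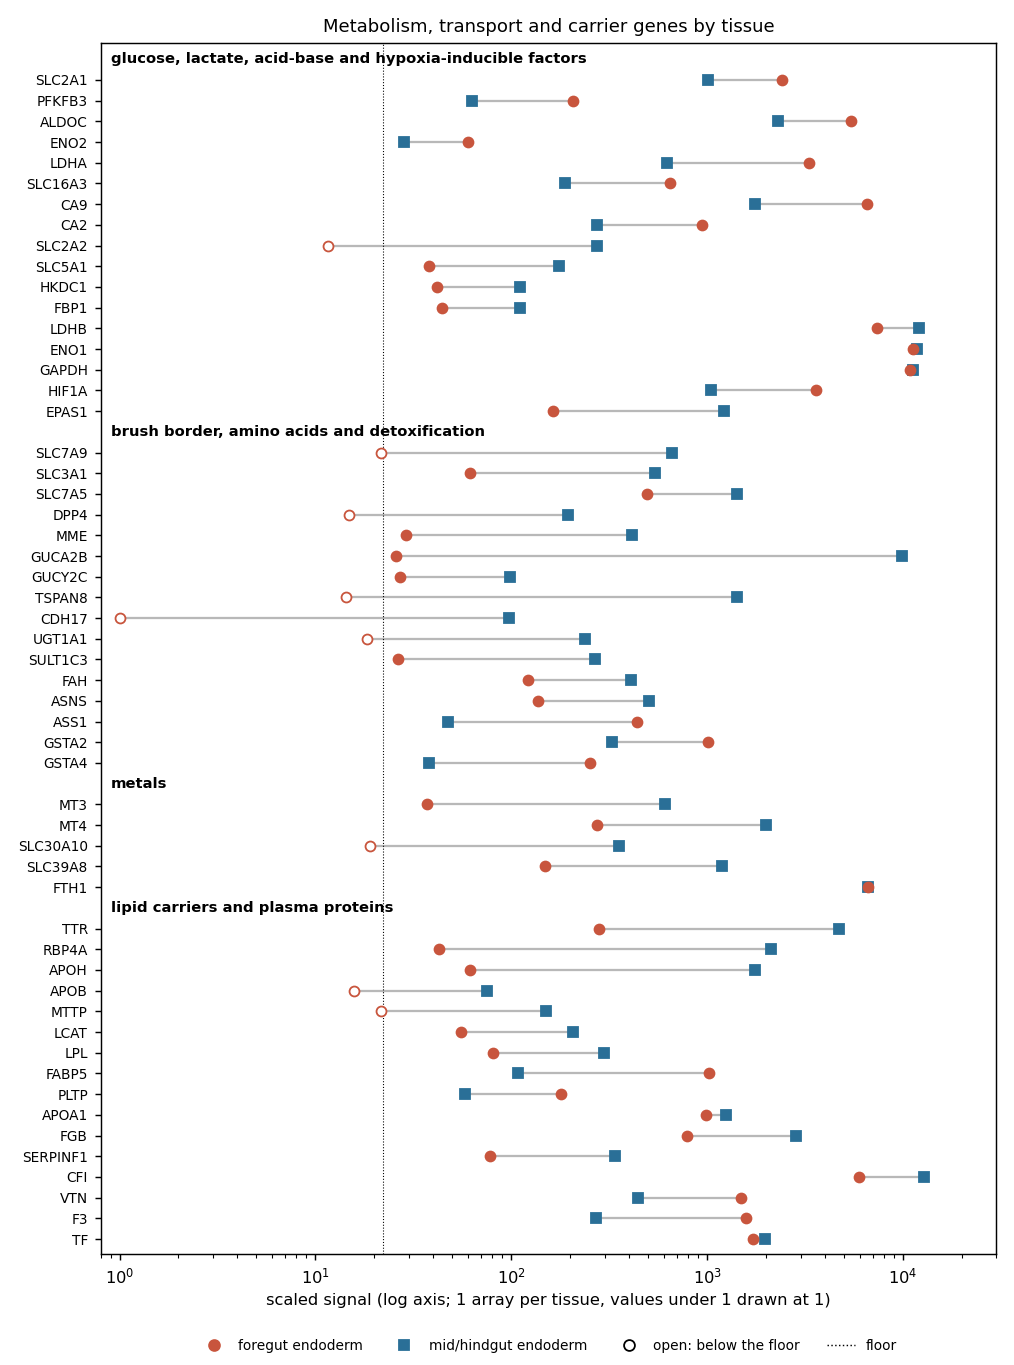
Scaled signal (log axis) of metabolism, transport and carrier genes in foregut endoderm (circles) and mid/hindgut endoderm (squares), 1 array each, joined by a line per gene, with open symbols below the floor (dotted line). Genes of lactate and carbonic anhydrase lie to the right in foregut, such as LDHA at 3303 against 622. Intestinal carriers, metallothioneins and TTR lie to the right in mid/hindgut, such as TTR at 282 in foregut against 4718.

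The largest fold among the intestinal genes listed was that of GUCA2B. GUCA2B, which encodes the gut peptide uroguanylin, read 25.7 in foregut, 9887 in mid/hindgut and 23.4 in early endoderm. That is 385-fold lower in foregut, just above the floor, on a single probe set marked as shared between transcripts. Its receptor GUCY2C, a guanylate cyclase of the intestinal brush border, read 27.0 and 98.2, with -1.86 and -1.89 on 2 probe sets. Both the peptide and the receptor were thus lower in foregut, at very unequal folds.

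Several other genes known from the intestinal lining were lower in foregut, not all of them from the hormone, intestinal and pancreatic list. Of the 35 measured genes of that list, 9 (25.7%) were lower, 5 (14.3%) higher and 21 within 2-fold, and the median was -0.30. DPP4, a surface peptidase of enterocytes, was below the floor in foregut and read 196 in mid/hindgut. None of its other probe sets was measured, and the median log2 difference over its 3 probe sets was 0.00. MME, the peptidase neprilysin that was chosen after its values were seen, read 28.9 and 412, 14.3-fold lower in foregut. TSPAN8, a tetraspanin of gut epithelium, was below the floor and read 1419, at least 64.1-fold lower, on a shared probe set. LGALS2, a small galectin that binds sugars on gut cells, read 43.3 and 1422, also on a shared probe set. ISX, a homeobox gene of intestine that represses vitamin A uptake in mammals, read 24.9 and 314. ESPN, an actin bundler of microvilli, had the other sign at 46.7 and 23.2, with 0.53 on a second probe set. Of the 16 measured tetraspanins, counted as a family after the values were seen, 0 were higher and 3 lower in foregut.

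Matrix was the function list with the most members higher in foregut. Of 59 measured genes of collagens, fibrillar matrix and proteoglycans, 19 (32.2%) were 2-fold higher in foregut and 5 (8.47%) lower, and the median was 0.58 against 0.02 for all genes. Of the 19, the genes COL1A1, COL1A2, DCN and LUM also stand in the mesenchyme list given above. Under each of the 5 other scalings the median of the list stayed above 0.

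Fibrillar collagens were among the higher genes. COL1A1, a chain of type I collagen, read 1000 in foregut, 61.0 in mid/hindgut and 196 in early endoderm, 16.4-fold higher in foregut. Its partner chain COL1A2 read 1011, 312 and 1957 in the same 3 tissues, and 5 measured probe sets differed by 0.85 to 1.70. COL2A1, the collagen of cartilage and notochord sheath, read 1223 in foregut and 234 in mid/hindgut, with 2.26 and -0.32 on other probe sets. COL5A1 read 478 and 222, and COL5A2 read 306 and 137, which encode chains that nucleate type I fibrils. Of all 36 measured collagens, counted as a family after the values were seen, 11 were higher in foregut and 1, COL21A1, lower. COL21A1 stood at -1.04 on a shared probe set. It fell short of 2-fold under median, quantile, ribosomal protein and hybridisation control scaling (-0.98 to -0.47). Among the higher collagens, COL1A2, COL2A1, COL6A3 and COL12A1 fell short with the median over probe sets (0.00 to 0.89). Chains of the basement membrane were under 2-fold apart: COL4A1 read 100.2 in foregut and 168 in mid/hindgut, and COL4A2 read 381 and 495.

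Lysyl oxidases were higher as well. LOXL1, a lysyl oxidase that cross-links collagen and elastin, read 2439 in foregut and 767 in mid/hindgut, 3.18-fold higher. LOXL2 read 265 and 67.5, 3.93-fold higher. PLOD1, which hydroxylates collagen lysines and was chosen after its values were seen, read 828 and 291. Of 4 measured lysyl oxidases 3 were higher and 0 lower in foregut.

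The largest differences of the list were in a proteoglycan and a hyaluronan gene. GPC3, a membrane heparan sulfate proteoglycan that modulates growth factors, read 1382 in foregut, 39.8 in mid/hindgut and 95 in early endoderm, 34.8-fold higher in foregut. HAS2, the main hyaluronan synthase of embryos, read 3324, 179 and 6009 in the same order of tissues. HAPLN1, a link protein that ties hyaluronan to proteoglycans, read 116 in foregut, 550.2 in mid/hindgut and 1690 in early endoderm, so the synthase and the link protein had opposite signs. SULF1, which trims heparan sulfate, read 593 and 46.6, with 6 measured probe sets spread from 0.55 to 3.67. DCN (276 and 78.7) and LUM (284 and 98.3), small proteoglycans of connective tissue, were both higher.

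Broad adhesive matrix was present in both tissues. FN1, fibronectin, read 10037 in foregut and 6844 in mid/hindgut, and FBLN1, a fibulin, 3407 and 2695. The laminin chains LAMB1 (4493 and 3180) and LAMC1 (4537 and 2685) of the basement membrane were under 2-fold apart. Of 26 measured basement membrane genes 2 (7.69%) were higher and 1 (3.85%) lower. HSPG2, the basement membrane proteoglycan perlecan, read 577 and 150.0, and 3 probe sets differed by 1.94, 1.82 and 1.58. FBN1, fibrillin of elastic microfibrils, was below the floor in foregut and read 75.7 in mid/hindgut.

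Matrix proteases included genes on each side. Of 56 measured matrix-modifying enzymes and inhibitors, 9 (16.1%) were higher and 6 (10.7%) lower in foregut. TLL1, a protease that processes procollagen and chordin, read 844 in foregut and 194 in mid/hindgut. MMP17, a membrane-anchored metalloproteinase, was below the floor in foregut and read 133 in mid/hindgut. ASTL, an astacin-family protease known from the egg in mammals, was below the floor in foregut, 521 in mid/hindgut and 1059 in early endoderm. TMPRSS2, a surface serine protease of epithelia chosen after its values were seen, read 80.0, 298 and 994 in the same order. ADAM10, a sheddase used by most cells, read 2691 and 2511.

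Integrins, the receptors for this matrix, changed in a few members. Of 32 measured integrin and focal adhesion genes, 4 (12.5%) were higher and 2 (6.25%) lower in foregut. ITGA4, a subunit that binds fibronectin and VCAM1, read 1041 in foregut, 292 in mid/hindgut and 6380 in early endoderm, with 0.24 and 0.98 on other probe sets. ITGB4, the beta subunit of hemidesmosomes, read 86.6 and 286, and 3 probe sets differed by -1.72, -1.84 and -1.19. ITGB1, the beta subunit shared by most integrins, read 3192 and 3116.

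The largest difference of any named gene was in a gene of adhesion. FLRT1, named on the array for a leucine-rich membrane protein that binds FGF receptors and guidance receptors, was below the floor in foregut, 9632 in mid/hindgut and 60.4 in early endoderm, at least 435-fold lower in foregut. That value rests on 1 probe set and the array annotation, and FLRT1 is not in the adhesion list counted next. Over 49 measured cadherins and cell adhesion molecules, 6 (12.2%) were higher and 5 (10.2%) lower, and the median was 0.00. CDH17, the liver-intestine cadherin, was below the floor in foregut and read 97.5 in mid/hindgut. CADM2 read 41.2 and 293, ALCAM read 371 and 896 with -2.13 and -1.82 on other probe sets, and CADM1 read 2707 and 5394, just under 2-fold. CDH11, a mesenchymal cadherin, read 168 and 58.1, with 0.24 on a second probe set. CTNNB1, the cadherin partner beta-catenin, read 8053 and 8377.

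Desmosomes are the spot junctions that anchor keratin filaments. Of 58 measured genes of tight junctions, desmosomes and polarity, 4 (6.90%) were higher and 8 (13.8%) lower. PKP2, a plakophilin of the desmosome plaque, read 585 in foregut, 4045 in mid/hindgut and 296 in early endoderm, 6.91-fold lower in foregut. DSP, desmoplakin, read 446 and 1506, and 3 probe sets differed by -1.75, -1.33 and -1.84. DSG2 (117 and 278) and DSC1 (43.8 and 124 on a shared probe set), desmosomal cadherins, and PKP1 (24.2 and 60.3) had the same sign. Under hybridisation control scaling the last 3 calls ended, while PKP2 and DSP stayed 2-fold lower. Of 7 measured desmosome genes, counted as a family after the values were seen, 0 were higher and 5 lower. The remaining 2 were JUP, plakoglobin, at 1844 and 1155, and PKP4, at 1869 and 1334, both under 2-fold.

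Of 13 measured claudins, counted as a family after the values were seen, 1 was higher and 1 lower in foregut. CLDN1, a claudin that seals epithelia, read 6713 in foregut and 5820 in mid/hindgut. CLDN2, a claudin that forms cation pores in gut, read 26.5 and 55.6, and OCLN, occludin, 88.5 and 52.2. CLDN16 read 103 and 38.4, but its call was lost without a floor, where another probe set gave -0.03. The keratin KRT7 of simple epithelia read 5643 and 8866, and KRT24 read 4856 and 4855. PPL, periplakin of the cornified envelope, went against the desmosome genes at 317 and 148, with 0.24 on a second probe set.

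**Figure D4:**
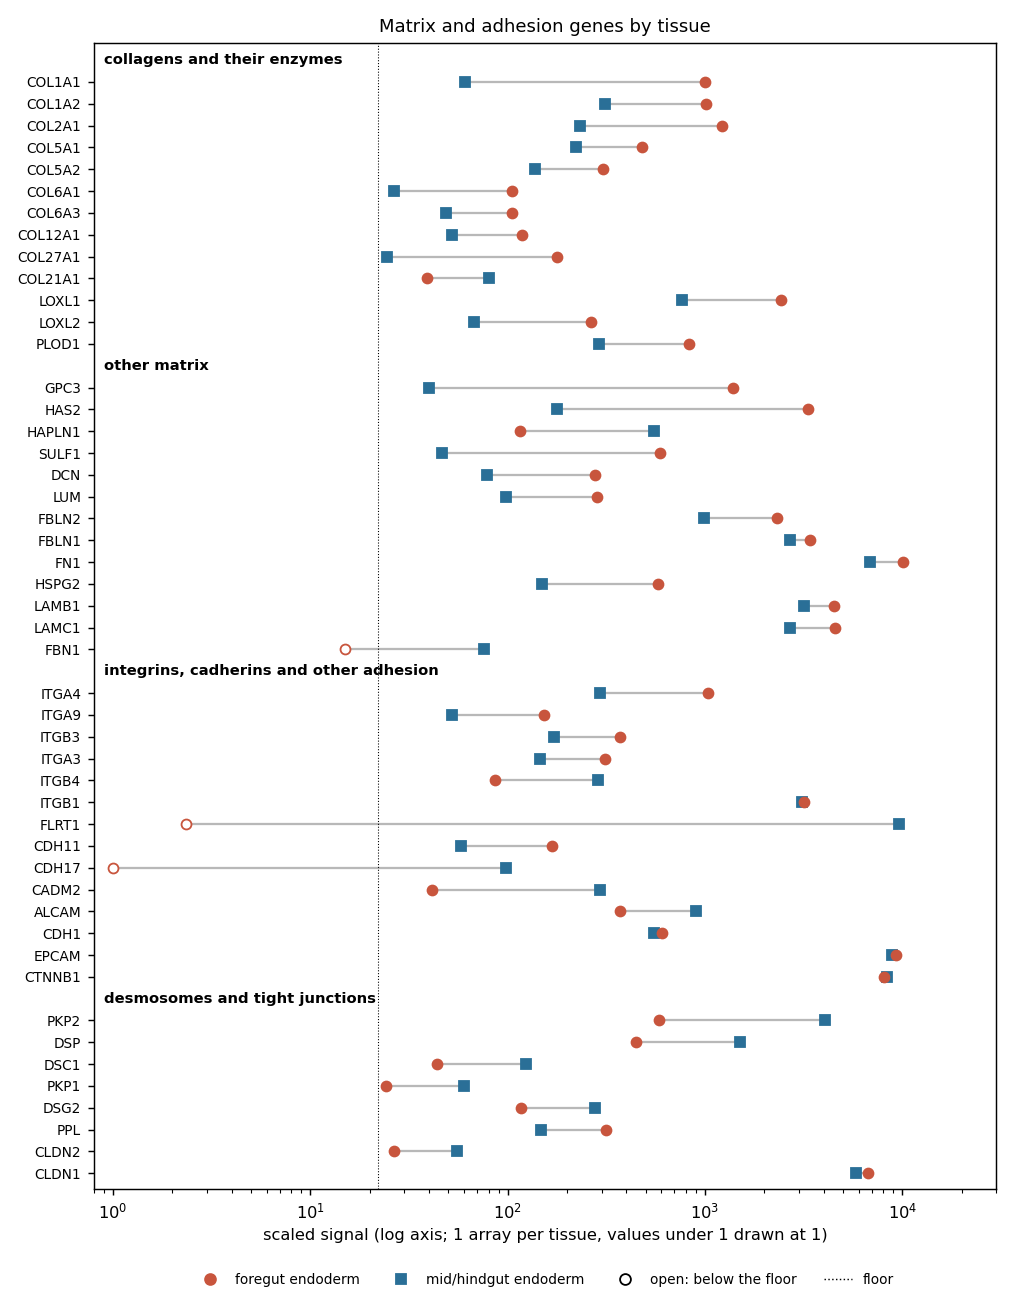
Scaled signal (log axis) of matrix and adhesion genes in foregut endoderm (circles) and mid/hindgut endoderm (squares), 1 array each, with open symbols below the floor (dotted line). Collagens, lysyl oxidases, GPC3 and HAS2 lie to the right in foregut. The desmosome genes PKP2, DSP, DSC1, PKP1 and DSG2 lie to the right in mid/hindgut, and EPCAM, CTNNB1 and ITGB1 nearly coincide.

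Secreted factors included vascular signals. ANGPT2, an angiopoietin that destabilises vessels, read 1528 in foregut, 51.9 in mid/hindgut and 29.0 in early endoderm, 29.5-fold higher in foregut. ANGPT2 also stands in the blood vessel list given above, where it is the 1 higher gene. VEGFD, a lymphatic and vascular growth factor, read 390.3 in foregut and was below the floor in mid/hindgut. CXCL12, a chemokine that guides migrating cells, read 1985 and 261, and 4 probe sets differed by 0.32 to 2.93. Of 50 measured chemokines, cytokines and growth factors of other families, 9 (18%) were higher and 6 (12.0%) lower in foregut. Over the 1356 measured genes in any list, 176 were higher and 166 lower.

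Among the lower factors, SPP1, the phosphoprotein osteopontin, read 144 in foregut, 2948 in mid/hindgut and 140.2 in early endoderm. PTN, the heparin-binding factor pleiotrophin, read 168 and 821, with -2.29, -2.35 and -2.28 on 3 probe sets. MDK, its close relative midkine, had the other sign at 4499 and 2348, under 2-fold. A ligand and its receptor were opposed in one case: KITLG, stem cell factor, read 138 in foregut and 385 in mid/hindgut, while its receptor KIT read 282 in foregut and was below the floor in mid/hindgut. MET, the receptor of hepatocyte growth factor, read 27.5 and 134, lower in foregut.

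Wnt pathway genes differed in both directions, with 7 of 37 higher and 7 lower (18.9% each). WNT3A was below the floor in foregut and read 442 in mid/hindgut, WNT5A read 277 and 1277, and WNT8A was below the floor against 165, all ligands of the streak and tail bud. Inhibitors and receptors were found on both sides. SFRP1, a secreted Wnt inhibitor, read 1213 and 162, with other probe sets at 3.04 and 0.14. DKK4, a Wnt inhibitor chosen after its values were seen, read 808 and 178, and SHISA2, which holds back Wnt and FGF receptors, 3825 and 928. SFRP5, of the same family as SFRP1, was lower in foregut at 22.4 and 64.95. Of 10 measured frizzled genes, which encode Wnt receptors and were counted after the values were seen, 5 were higher in foregut and 1 was lower, FZD10, below the floor in foregut against 81.2 in mid/hindgut. FZD4 (833 and 263) and FZD7 (784 and 285) passed 2-fold on each of their 2 and 3 probe sets. FZD8 read 1178 and 47.2 on a shared probe set, but its other probe set gave -0.22.

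Genes of the BMP and FGF pathways, counting ligands, receptors, inhibitors and targets together, were mostly higher in foregut where they differed. Of 43 BMP, TGF-beta and Nodal pathway genes, 11 (25.6%) were higher and 3 (6.98%) lower, and of 29 FGF pathway genes 6 (20.7%) were higher and 1 (3.45%) lower. BMP7 read 1733 in foregut and 289 in mid/hindgut, with 2.58, 1.84 and 1.20 on 3 probe sets. CHRD, a BMP antagonist, read 401 and 70.4, and the BMP target ID1 4938 and 1576. MSX2, also known as a BMP target, went the other way at 32.9 in foregut and 554 in mid/hindgut. The ligand BMP5 was also lower, below the floor in foregut against 91.4 in mid/hindgut. The median over its 3 probe sets was 0.00. FGF19 (1024 and 298), FGF8 (526 and 157) and FGF3 (511 and 129), ligands of pharynx and head, were each between 3.34-fold and 3.97-fold higher in foregut, and the receptor FGFR2 was lower at 717 and 1971.

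Among other signals, SHH, the Hedgehog ligand of gut lining, read 37.3 in foregut, 181 in mid/hindgut and below the floor in early endoderm, 4.86-fold lower in foregut. Its receptor PTCH1, itself a target of the pathway, read 766 and 512, and SMO 307 and 126. In the Notch pathway HEY1, a target gene that vessels also use, read 2872 and 276, and NOTCH2 read 2571 and 655, with other probe sets from -0.06 to 1.87. Of 44 guidance genes 7 (15.9%) were higher in foregut and 2 (4.55%) lower. Among the higher ones, PLXNA4, EFNA5 and SEMA5A gave 0.00 to 0.07 with the median over probe sets. The lower ones, SLIT2 and SEMA6A, both stood at -1.02. They fell short of 2-fold under median, quantile, ribosomal protein and hybridisation control scaling (-0.98 to -0.45), though other probe sets of SEMA6A gave -1.89 to -1.34. SEMA3F, a semaphorin that repels axons and vessels, read 844 and 129.

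Peptide hormones were split. CCK, the gut hormone cholecystokinin, read 847 in foregut, 59.7 in mid/hindgut and 118 in early endoderm. SST1, a somatostatin gene, read 531 and 34.3, with 2.38 and 0.38 on other probe sets. VIP (31 and 79.6) and GAL (below the floor in foregut and 72.9 in mid/hindgut), peptides of gut nerves in later life, were lower in foregut at signals near the floor. The VIP probe set is marked as shared. Over 35 measured hormone, intestinal and pancreatic genes, 5 (14.3%) were higher and 9 (25.7%) lower.

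Retinoid genes changed on both sides of the pathway, with 4 of 18 higher and 4 lower (22.2% each). The retinoic acid-degrading enzymes were divided by tissue: CYP26C1 read 2235 in foregut and 34.4 in mid/hindgut, 65.0-fold higher, while CYP26A1 read 82.6 and 574, 6.95-fold lower. STRA6, the cell membrane receptor for the retinol-binding protein, read 838 in foregut and 85.2 in mid/hindgut, opposite in sign to the carriers RBP4A and TTR given above. RDH10, which oxidises retinol, read 534 in foregut, 1213 in mid/hindgut and 4978 in early endoderm. ALDH1A3, which makes retinoic acid, read 203 and 28.1 on a shared probe set.

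**Figure D5:**
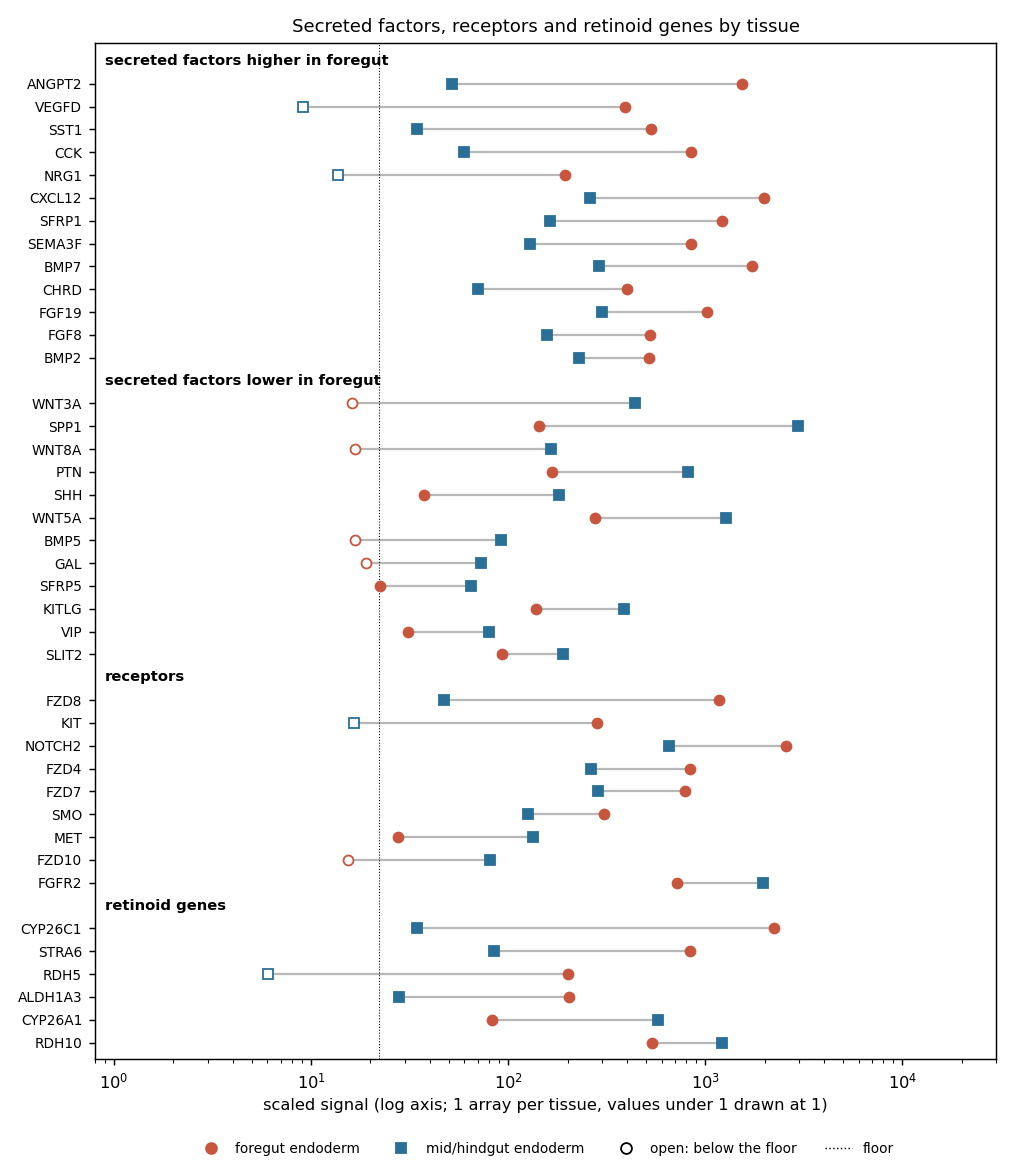
Scaled signal (log axis) of secreted factors, receptors and retinoid genes in foregut endoderm (circles) and mid/hindgut endoderm (squares), 1 array each, with open symbols below the floor (dotted line). ANGPT2, CXCL12, BMP7 and CYP26C1 lie to the right in foregut, and WNT3A, SPP1, PTN and CYP26A1 to the right in mid/hindgut. KIT and KITLG lie on opposite sides.

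Some of the genes furthest apart belong to none of these groups. PKDCCA, related to a kinase of secreted proteins, read 2317 in foregut, 24.7 in mid/hindgut and 704 in early endoderm, 93.7-fold higher in foregut. TNNC2, troponin C of fast muscle, read 1046 in foregut and was below the floor in mid/hindgut. EXFABP, an extracellular lipocalin of chick cartilage that binds fatty acids, read 738 and 39.9. GCHFR, which regulates the enzyme that starts biopterin synthesis, read 981 and 59.0, on a shared probe set. CAPN8, a calpain known from stomach in mammals, read 666 and 25.1, and 4 of its 5 probe sets differed by 3.82 to 4.73 while the fifth gave 0.49. LOC417741, which has only a locus name, read 1671 and 61.7, with other probe sets at 4.72 and 0.07.

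The lists hold 1356 of the 10929 measured genes. Of the 695 genes higher in foregut 176 were in at least 1 list and 519 in none, and of the 627 lower genes 166 were in a list and 461 in none. Chicken probe sets without a single gene name gave shares of the same order. Among 5588 of them above the floor, 333 (5.96%) were 2-fold higher and 252 (4.51%) lower in foregut.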

How the data were processed

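Values were the deposited signal intensities on a linear scale, 1 array per tissue. The authors computed these intensities with MAS5, per the submitters' processing notes; the version and settings of MAS5 were not given in the sources used here, and no detection call was used. The array holds 38535 probe sets, of which 37693 are for chicken. Platform annotation gave 1 gene for 27178 and several genes for 177, which were not named, and did not list 11180. Symbols were updated through gene identifiers to a chicken gene table, where 26863 were found.

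The arrays' 2% trimmed means (155 in foregut, 159.8 in mid/hindgut, 192 in early endoderm) were scaled to their mean, by 1.09, 1.06 and 0.881. The floor, 22.1, was the 40th percentile of all chicken signals on the 3 arrays, and lower signals were set to it. Each gene was read from its probe set with the highest mean log2 signal over the 3 arrays, and 7336 genes had more than 1. Genes above the floor on either array were compared by log2 difference, and 2-fold was counted; with 1 array per tissue no test was run, and the number of arrays limits precision.

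Genes named are drawn from the 15 highest and 15 lowest, and from up to 5 members per list and direction that were 2-fold apart. They are also drawn from the 3 members of each list with the highest signal, the measured HOX genes, and a set of position and lining genes. Not every gene so chosen is given in the text. Those marked in the text, the other genes of this kind (COL1A2, COL4A1, COL4A2, COL5A1, COL5A2, DCN, LUM, PRRX1, VIP, GAL, GSTA4, CYP2C23b, CLDN2, DSG2, OCLN, SHISA2, VEGFA, JUP, PKP4, SLC39A12, CA10 and ACTC1) and the 32 families by symbol were chosen after their values were seen. The 46 lists (31 of functions, 3 technical, 12 of cell types, with 1757 memberships on the array) and all genes were chosen with earlier results of these data known. Python 3.11.15, numpy 2.4.6, pandas 2.3.3, scipy 1.17.1 and matplotlib 3.10.9 were used, and the counting was tested on simulated data.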

Additional observations from a re-analysis of the deposited data

How the results depend on the processing

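The 2-fold counts of 695 higher and 627 lower genes moved by less than 1.5 times under median, quantile and ribosomal protein scaling, without scaling, with the floor placed at the viral probe sets' 95th percentile, without a floor, over genes above the floor in both tissues and without shared probe sets. Scaling on hybridisation controls gave 2290 higher and 252 lower genes, so 90.1% of calls were higher against 52.6%, and the median of all genes was 0.56 in place of 0.02; the cause was not tested. Under the other scalings that median lay between -0.02 and 0.10. A floor at the 20th percentile gave 1133 and 1021, since more genes near background enter, and one at the 60th gave 416 and 402. With each gene read as the median of its probe sets there were 449 higher and 498 lower genes. Counted at 3-fold, 253 genes were higher and 236 lower. Of the 54 named lower genes that lost their call on hybridisation control scaling, the largest was HBAD at 2.96-fold lower.

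The named genes that changed sign were these: CLDN16 gave -0.03 without a floor, and without shared probe sets FZD8 gave -0.22 and SERPINF1 2.19. Under hybridisation control scaling 17 negative list medians turned positive, each below that scaling's median of all genes. For 12 of them the median had been within 0.36 of 0, and became 0.18 to 0.54. That limit is the technical SD of single genes and does not measure the spread of a list median. The other 5 were those of plasma proteins (0.02), apolipoproteins (0.16), heat shock and stress genes (0.16), paraxial mesoderm (0.08) and yolk sac genes (0.11). Paraxial mesoderm also gave 0.09 over genes above the floor in both tissues. Without shared probe sets, GUCA2B, TSPAN8, LGALS2, TBXT, FABP5, ASS1, ASNS, GCHFR, CA2 and LPL were among the genes with no measured probe set left. So were GSTA2, HMGCS1, DSC1, VIP, COL21A1, HAND2, MYH7 and HBAD. None of these could then be counted. ACHE, CADM3, TNNI1, HKDC1 and OXCT1 were among those then under 2-fold, and so were NOTCH2, COL1A2, ITGA4, SLC7A5 and COL2A1 with the median over probe sets. No paired analysis was possible because each tissue has 1 sample and none was repeated.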

Other observations

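Genes outside the groups described above also differed. All those in this paragraph were chosen after their values were seen, unless named otherwise. The deiodinases, which activate (DIO2) and inactivate (DIO3) thyroid hormone, were both lower in foregut: DIO2 read 67.9 in foregut and 576 in mid/hindgut, and DIO3 read 63.3 and 691. The nuclear receptor NR5A2, a regulator of pancreas, liver and intestine genes, read 92.4 and 535, with -2.53 and -2.27 on 2 probe sets, and RFX6, a factor of gut endocrine cells, was below the floor in foregut and read 232 in mid/hindgut. TGM2, a transglutaminase that cross-links proteins, read 232 and 1301. IL22RA1, a cytokine receptor subunit of epithelia, read 30.7 in foregut and 239 in mid/hindgut, and did not pass the floor in early endoderm. SCIN, which severs actin filaments, read 71.6 and 995, on a shared probe set. On the foregut side, EMP1, an epithelial membrane protein, read 1670 in foregut, 296 in mid/hindgut and 24.9 in early endoderm, with 0.71 on a second probe set, and ANXA1, an annexin, read 295 and 59.8.

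Marker lists of tissues outside the gut lining had members on both sides. The lists are small, and over all genes measured 6.36% were higher and 5.74% lower. Of 19 measured neural genes 8 (42.1%) were higher and 4 (21.1%) lower in foregut, with summed signals of 9854 in foregut and 8198 in mid/hindgut. OTX2, which endoderm also expresses, is among the higher ones. Of 14 neural crest genes 4 (28.6%) were higher and 2 (14.3%) lower, and of 14 notochord and floor plate genes 3 (21.4%) and 2 (14.3%). Of 25 surface ectoderm and epiblast genes 4 (16%) were higher and 2 (8%) lower, and of 13 white blood cell genes 3 (23.1%) and 2 (15.4%). Of 15 paraxial and tail bud mesoderm genes 2 (13.3%) were higher and 4 (26.7%) lower. Among the lower ones was MSGN1, which did not pass the floor in foregut, against 376 in mid/hindgut. TBXT, the streak and notochord factor of the posterior list, read 98.2 in foregut and 2420 in mid/hindgut on a shared probe set. Of 25 yolk sac and hypoblast genes 5 (20%) were higher and 6 (24%) lower. Of 9 germ cell genes 1 (11.1%), KIT, was higher and 2 (22.2%) were lower. PIWIL1, which silences transposons in germ cells, read 53.0 in foregut, 849 in mid/hindgut and 488 in early endoderm, and TDRD1, its tudor-domain partner in mammals, read 32.0, 98.2 and 140.1 in the same order, while DDX4, the germ cell helicase vasa, was below the floor in foregut and read 30.6 in mid/hindgut.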
